A study of Mus musculus with 28 samples.

Results

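The sarcomere, Z-disc and M-band structural genes examined here are 34 genes that encode the filaments of the contractile unit of the muscle fiber, the lattices that anchor them, and the proteins that assemble, sense or repair them. They were chosen by name, were found once each among the 55359 genes counted in both tables, and all 34 passed the filter on low counts in each cohort. By role they comprise 7 genes of the thin filament, 6 of titin and the M-band, 10 of the Z-disc, 6 of stretch and repair, 3 of the thick filament and 2 myosin chaperones. RNA-seq was performed on the tibialis anterior (TA), a fast leg muscle, of 28 mice in 7 groups of 4. The Dnm2 cohort holds WT mice and Dnm2 S619L/+ mice (Dnm2SL, heterozygous for a point mutation of dynamin 2 in every cell), each on a placebo or tamoxifen diet. The Bin1 cohort holds WT mice on placebo and Bin1 mck-/- mice (Bin1KO, a deletion of amphiphysin 2 restricted to muscle by the muscle creatine kinase promoter, so that other cells of the tissue keep the gene) on placebo or tamoxifen, with no WT mice on tamoxifen. Both lines are models of centronuclear myopathy (CNM), all mice were 8 weeks old and of the C57BL/6N background, and their sex was not given in the labels. The labels name the cohorts as batches, and the RNA input and fragmentation time differed between them. Groups were therefore compared within a cohort. Where the mutants are set against each other, the contrasts of the cohorts were compared in a joint fit.

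Thin filaments of actin are held at the Z-disc by alpha-actinin, and thick filaments of myosin are cross-linked at the M-band by myomesins. Titin spans from the Z-disc to the M-band, and nebulin lines the thin filament. The Z-disc is also a site where load is sensed and where filamin and the Xin proteins gather at damaged sarcomeres, and inherited defects of many of these genes cause nemaline and other structural myopathies.

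On placebo, Mybph and Klhl40 were called higher in both mutants, Myom3 higher in Dnm2SL muscle and Mybpc2 lower in Bin1KO muscle. Actc1 was called lower with tamoxifen in the Dnm2 cohort. Some of these calls, that of Actc1 among them, were lost in other fits given below. Promoter sequence is shown for these 5 members. Each is the 250 bases before the annotated start, 5′ to 3′ on the strand of the gene, from RefSeq on build GRCm38.p6, which is not the build named for the counts. Capitals mark matches on either strand to the E-box CANNTG, the MCAT element CATTCC, the TATA box TATAAA, the MEF2 site or the CArG box, searched by their letters alone.
Mybph: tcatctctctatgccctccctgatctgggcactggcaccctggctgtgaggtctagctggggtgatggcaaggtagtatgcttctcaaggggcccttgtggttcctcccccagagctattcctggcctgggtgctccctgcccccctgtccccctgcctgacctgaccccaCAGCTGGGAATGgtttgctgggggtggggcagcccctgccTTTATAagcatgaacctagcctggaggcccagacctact
Klhl40: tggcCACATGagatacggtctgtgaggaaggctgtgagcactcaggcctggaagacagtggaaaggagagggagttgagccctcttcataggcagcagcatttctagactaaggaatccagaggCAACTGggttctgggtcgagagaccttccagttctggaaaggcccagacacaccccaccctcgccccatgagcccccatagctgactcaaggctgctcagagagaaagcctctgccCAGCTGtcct
Myom3: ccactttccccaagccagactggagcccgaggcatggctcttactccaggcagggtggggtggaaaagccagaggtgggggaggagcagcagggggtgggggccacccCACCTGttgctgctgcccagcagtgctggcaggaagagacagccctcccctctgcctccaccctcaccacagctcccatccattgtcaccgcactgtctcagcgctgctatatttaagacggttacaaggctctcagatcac
Mybpc2: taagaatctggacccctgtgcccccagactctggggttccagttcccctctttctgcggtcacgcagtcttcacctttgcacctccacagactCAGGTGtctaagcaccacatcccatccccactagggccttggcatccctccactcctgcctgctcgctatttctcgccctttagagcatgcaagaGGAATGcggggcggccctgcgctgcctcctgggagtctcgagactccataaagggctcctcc
Actc1: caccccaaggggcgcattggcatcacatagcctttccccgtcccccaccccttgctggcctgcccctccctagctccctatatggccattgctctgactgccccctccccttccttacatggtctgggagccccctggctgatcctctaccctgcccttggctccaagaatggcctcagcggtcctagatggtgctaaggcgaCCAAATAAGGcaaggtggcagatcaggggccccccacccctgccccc

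The windows lie at chr1:134193198-134193447 for Mybph (plus strand), chr9:121777357-121777606 for Klhl40 (plus strand), chr4:135759465-135759714 for Myom3 (plus strand), chr7:44524670-44524919 for Mybpc2 (minus strand), chr2:114052876-114053125 for Actc1 (minus strand). In capitals stand an E-box, an MCAT match beside it and a TATA box in Mybph, 3 E-boxes in Klhl40, 1 E-box in Myom3, an E-box and an MCAT match in Mybpc2, and a CArG box in Actc1. Of the 34 members, 26 had a promoter in the table, with 35 promoters in all, and Neb, Actn3, Lmod3, Myom2, Myoz1, Myoz3, Tcap and Xirp1 had none. The MEF2 site was present in 6 of the 35 member promoters (17.1%), those of Capn3, Klhl41, Myoz2, Speg, Ttn and Xirp2, and in 0.508% of the 32851 promoters of the same length in the table. The CArG box was present in 6 member promoters (17.1%), those of Acta1, Actc1, Fhl1, Myom1 and a pair of Ldb3, against 1.47% of all promoters. The E-box was found in 80.0% of member promoters against 66.2% of all, MCAT in 22.9% against 12.6%, and TATAAA in 14.3% against 12.4%. These matches are a description of the letters in this window.

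Set to exon length, the levels of the members in WT muscle on placebo spanned a wide range. In the Dnm2 cohort Acta1, the skeletal alpha-actin of the thin filament, stood at 19704 CPM per kb of exon. Next came Tcap, which caps titin at the Z-disc (2569), Actn3, the alpha-actinin of fast fibers (2165), and Mybpc2, the fast isoform of myosin-binding protein C (1218). The lowest were Ankrd1, a titin-associated stretch sensor (12.0), Capn3, the muscle calpain bound to titin (8.87), and Myom3, a myomesin of the M-band (7.01). Exons of Capn3 share 7.68% of their bases with Ganc on the same strand, which had a mean of 1210 reads per mouse in this cohort. The effect of this overlap on the counts of Capn3 was not tested. CPM are read counts set to a common library size with TMM factors within a cohort. Used without length in all that follows, they are not comparable between genes of different length.

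Sequencing depth was 15586333 to 109710886 reads on genes per mouse in the Dnm2 cohort and 24671835 to 35136327 in the Bin1 cohort. Bin1 stood at 51.6 to 62.1 CPM in Bin1KO mice on placebo and 36.1 to 49.5 CPM on tamoxifen, against 521 to 556 CPM in the WT mice of that cohort. Dnm2 was at 61.0 to 72.4 CPM in WT and Dnm2SL mice on placebo, and a point mutation cannot be checked by RNA level. Fast fiber markers summed to 85906 to 203411 CPM over the 28 mice and cardiac-type markers to 6.07 to 20.5 CPM. Some mice stood apart in the members. Among WT mice of the Bin1 cohort, mouse 5 had the highest Myom3, Csrp3, Ankrd2, Flnc and Fhl1. Mouse 4 of the WT placebo group of the Dnm2 cohort had the highest Actc1 and Ankrd1, Dnm2SL placebo mouse 3 had the lowest Mybph and Myom3, Dnm2SL tamoxifen mouse 4 the highest Flnc and Xirp1, and Bin1KO tamoxifen mouse 3 the lowest Fhl1 and Myom3. Calls that were gained or lost without one of these mice are named with each comparison of its group. In bulk RNA, fewer fibers and less RNA per fiber cannot be told apart.

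The question of the first comparison was which structural genes differed in Dnm2SL muscle. Of the 34 members, 8 passed the threshold of an adjusted p below 0.05 in edgeR's quasi-likelihood test with Benjamini-Hochberg adjustment over all genes (edgeR adjusted p below), which is 23.5% of members against 21.9% of the 15439 genes tested. Mybph, Myom3, Klhl40, Flnc, Klhl41 and Myoz3 were higher and Myom1 and Capn3 were lower. The members' median log2 fold change was -0.08 beside 0.02 over all genes, and the mice of the groups did not overlap in 12 members, where 24.9% of all genes had no overlap. The share of members that passed was near that of all genes. In each value with an error given as ±, the error is the SE of the fit.

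**Figure D1:**
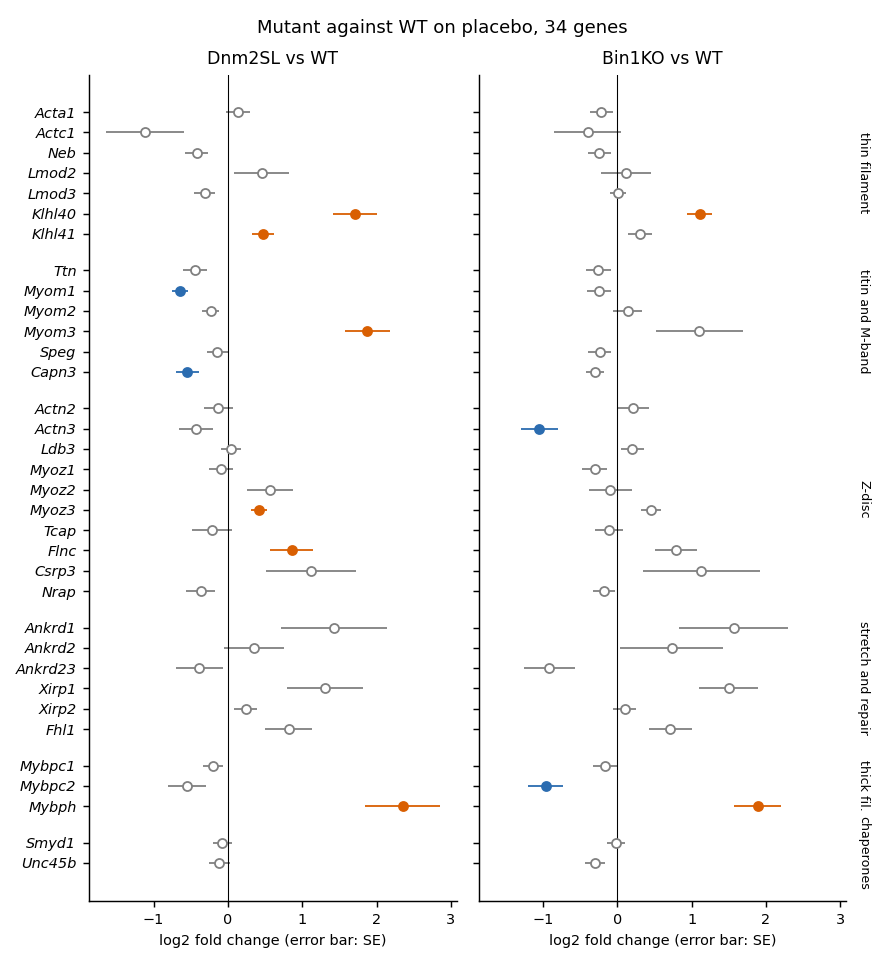
Log2 fold change (x axis, error bar SE) of the 34 genes in mutant against WT mice on placebo, by role, for Dnm2SL (left) and Bin1KO (right), 4 mice per group. Filled points passed the threshold, orange higher and blue lower; Mybph and Klhl40 are filled orange in both panels.

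In the thin filament, Klhl40 and Klhl41 rose. Both are kelch proteins that stabilize proteins of the thin filament such as nebulin. Klhl40 was measured at 342, 438, 177 and 287 CPM in Dnm2SL mice and at 108, 87.9, 74.6 and 109 CPM in WT mice, so that every mutant mouse lay above every WT mouse. Its level was 3.27-fold higher, with a log2 fold change of 1.71 ± 0.30 (edgeR adjusted p = 0.00137). Klhl41 was at 859, 1043, 709 and 1143 CPM against 682, 699, 635 and 693 CPM in WT, with no overlap and a log2 fold change of 0.47 ± 0.15 (edgeR adjusted p = 0.0332), and its call held in 10 of 16 fits with 1 mouse removed. Neb, the ruler-like protein of the thin filament, was at 5032, 4428, 4346 and 4439 CPM against 5788, 6751, 5953 and 5924 CPM. The groups of Neb did not overlap, yet the change of -0.42 ± 0.15 on the log2 scale did not pass (edgeR adjusted p = 0.0616). DESeq2 and the edgeR fit of only the groups compared called Neb lower. Actc1, the cardiac alpha-actin that skeletal fibers use in development, varied widely within groups, with 389.7, 160.0, 1057 and 292 CPM in Dnm2SL and 1104, 626, 502 and 1892 CPM in WT, and its log2 fold change was -1.12 ± 0.52, which did not pass (edgeR adjusted p = 0.135). It was -1.88 without Dnm2SL mouse 3 (edgeR adjusted p = 0.0129) and -0.65 without WT mouse 4 (edgeR adjusted p = 0.385). The other 3 thin filament genes, Acta1, Lmod2 and Lmod3, had log2 fold changes of 0.13, 0.45 and -0.31 and did not pass.

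The M-band genes moved in opposite directions. Myom3 was at 185, 185, 67.7 and 188 CPM in Dnm2SL and 43.0, 33.7, 31.1 and 61.7 CPM in WT. Mouse 3 of the mutant group, at 67.7 CPM, lay near the highest WT mouse, and the other 3 lay between 184.7 and 187.7 CPM. The rise was 3.68-fold, a log2 fold change of 1.88 ± 0.30 (edgeR adjusted p = 0.000764), and 2.13 without mouse 3. Myom1, the myomesin found at the M-band of all fibers, was at 1461, 1195, 1396 and 1274 CPM in Dnm2SL against 2007, 2253, 2091 and 1985 CPM in WT. All mutant mice were below all WT mice, with a log2 fold change of -0.65 ± 0.11 (edgeR adjusted p = 0.000744). Capn3 was at 30.7, 34.5, 30.6 and 26.2 CPM against 42.9, 49.1, 44.3 and 41.9 CPM, again without overlap, with a log2 fold change of -0.55 ± 0.15 (edgeR adjusted p = 0.0183). Ttn and Myom2 did not overlap between the groups either, but the log2 values -0.44 and -0.23 missed the threshold (edgeR adjusted p = 0.0529 and 0.136). DESeq2 and the edgeR fit of only the groups compared called Ttn lower. Speg, a kinase of the M-band and triad region whose loss also causes CNM, differed by -0.14.

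At the Z-disc, Flnc and Myoz3 rose among 10 genes. Flnc, the muscle filamin that cross-links actin and marks sarcomere lesions, was at 2367, 2104, 1432 and 2283 CPM in Dnm2SL and 1369, 1233, 794 and 1125 CPM in WT. The log2 fold change was 0.86 ± 0.29 (edgeR adjusted p = 0.0451), and its call held in 4 of 16 such fits. Myoz3, a calsarcin that tethers calcineurin to alpha-actinin, was at 344, 343, 336 and 374 CPM against 254, 282, 275 and 236 CPM. The mutant mice were tightly grouped above the WT mice, with a log2 fold change of 0.41 ± 0.11 (edgeR adjusted p = 0.0132). The other 8 Z-disc genes ranged from -0.43 to 1.12, with Csrp3, the muscle LIM protein, at the top with 1.12 ± 0.60 and overlapping groups. Myoz2, the calsarcin of slow fibers, had 0.57 (edgeR adjusted p = 0.197) and 0.83 without Dnm2SL mouse 3 (edgeR adjusted p = 0.0180). Without WT mouse 4, the calls of Flnc and Klhl41 were lost (edgeR adjusted p = 0.0776 and 0.0532).

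With edgeR 0 of the 6 stretch and repair genes passed, 2 had an unadjusted p below 0.05 (Xirp1 and Fhl1) and DESeq2 called Fhl1, while 5 had values above 0 and their median log2 fold change was 0.59. Fhl1, a LIM protein that binds titin, was at 4730.2, 5821, 2239.7 and 6674 CPM in Dnm2SL and 2094, 3249, 1699.7 and 3996 CPM in WT, with a log2 fold change of 0.82 ± 0.32 (edgeR adjusted p = 0.0758). Without Dnm2SL mouse 3, the only mutant mouse inside the WT range, it was 1.06 (edgeR adjusted p = 0.0117), and without WT mouse 4 1.05 (edgeR adjusted p = 0.0371). Ankrd1 was at 89.9, 139.5, 62.3 and 84.7 CPM in Dnm2SL and at 21.9, 9.62, 2.13 and 105 CPM in WT, where mouse 4 was above 3 of the mutant mice. Its log2 fold change was 1.43 ± 0.72 with all mice (edgeR adjusted p = 0.164) and 2.997 without that WT mouse (edgeR adjusted p = 0.00250). Xirp1, a Xin actin-binding protein of damaged sarcomeres, was at 890.3, 506, 555 and 591 CPM against 314, 183, 137 and 389 CPM, with no overlap and 1.31 ± 0.51 (edgeR adjusted p = 0.0776).

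The largest rise was that of Mybph, a short relative of myosin-binding protein C on the thick filament. Dnm2SL mice had 775, 806, 361 and 827 CPM and WT mice 196, 63.9, 61.2 and 220.3 CPM. All mutant mice were above all WT mice, mouse 3 being the lowest of them. The rise was 5.10-fold, a log2 fold change of 2.35 ± 0.50 (edgeR adjusted p = 0.00476). The longer members of that family went the other way in sign without passing, Mybpc1 at -0.21 and Mybpc2 at -0.55, the latter at -0.75 without Dnm2SL mouse 3 (edgeR adjusted p = 0.0475). Exons of Mybph share 49.9% of their bases with Adora1 on the opposite strand, which had a mean of 47.4 reads per mouse in this cohort, and the strand setting of the counting was not stated. Smyd1 and Unc45b, grouped here as myosin chaperones, were at -0.076 and -0.11 (edgeR adjusted p = 0.605 for Unc45b).

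**Figure D2:**
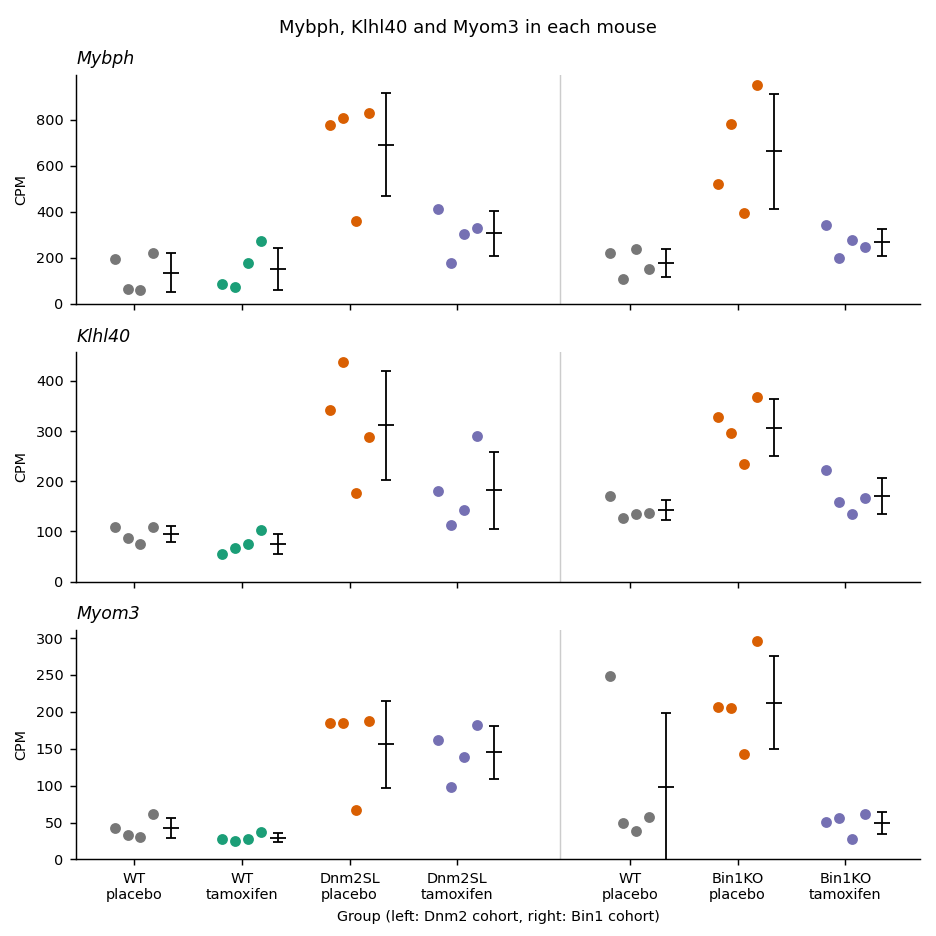
CPM (y axis, from 0) of Mybph, Klhl40 and Myom3 in each of the 28 mice, one point per mouse, with the mean and SD of each group of 4 beside it; the Dnm2 cohort is left of the line. Placebo mutants (orange) are high in both cohorts, and WT mouse 5 of the Bin1 cohort, at 248 CPM of Myom3, lies among them.

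Part of these calls depended on scaling. The TMM factors of the WT placebo mice were 0.812 to 0.9 and those of the other 12 mice of the cohort 0.963 to 1.16. With library sizes alone, the median log2 fold change of all genes moved to 0.28 in this comparison (0.13 for Bin1KO against WT and -0.16 for tamoxifen in Bin1KO), and 11 members were called higher and 1 lower, with a member median of 0.19, still below that of all genes. Mybph, Myom3, Klhl40, Flnc, Klhl41, Myoz3 and Myom1 were called under both, and Capn3 with library sizes had -0.28 (edgeR adjusted p = 0.0722). Markers of denervation summed to 188 to 406 CPM in Dnm2SL mice and 86.7 to 110.4 CPM in WT, with 7 of 8 higher, and regenerating fiber markers to 53.6 to 100.3 against 18.2 to 32.3 CPM, with 3 of 6 higher. Slow fiber markers summed to 162 to 525 CPM against 191 to 345 CPM, with 6 of 9 higher and 1 lower. Smooth muscle markers summed to 332 to 664 CPM against 974 to 1131 CPM, with 3 of 5 lower, endothelial markers to 178 to 471 CPM against 370.5 to 709.5 CPM, with 3 of 5 lower, and tendon markers to 257 to 489.7 CPM against 47.9 to 252 CPM, with 3 of 6 higher. The part of these cells and states in the member values was not tested.

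In Bin1KO muscle on placebo, 4 of the 34 members passed (11.8%), against 2.61% of the 14841 genes tested. Mybph and Klhl40 were higher, and the fast-fiber genes Actn3 and Mybpc2 were lower. The median of the members was -0.003 beside 0.008 over all genes, and the groups did not overlap in 6 members, where 16.5% of all genes had no overlap. Mybph was at 521, 781, 395 and 952 CPM in Bin1KO and 220.2, 107, 238 and 150.4 CPM in WT. Every mutant mouse exceeded every WT mouse, 3.70-fold on average, with a log2 fold change of 1.89 ± 0.31 (edgeR adjusted p = 0.0136). The call was lost without WT mouse 6 or mouse 8, the log2 fold change staying between 1.65 and 2.06 when any 1 mouse was left out. Klhl40 was at 329, 296, 234 and 369 CPM against 171, 126, 135 and 137 CPM, without overlap, 2.15-fold higher with a log2 fold change of 1.11 ± 0.17 (edgeR adjusted p = 0.00787). Its call held in all 12 fits with 1 mouse removed.

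Actn3 was at 3652, 3086, 4723 and 2640.2 CPM in Bin1KO and 5390.2, 8237, 8313 and 7211 CPM in WT. The highest mutant mouse lay below the lowest WT mouse, and the log2 fold change was -1.05 ± 0.24 (edgeR adjusted p = 0.0365). Mybpc2 was at 2544, 2038, 3052 and 1498 CPM against 3523, 4851, 5071 and 4388 CPM, with a log2 fold change of -0.97 ± 0.24 (edgeR adjusted p = 0.0456). Actn3 passed in 6 and Mybpc2 in 4 of the 12 fits without a mouse, and without WT mouse 5 Mybpc2 was -1.07 (edgeR adjusted p = 0.0526). Fast fiber markers summed to 93517 to 132707 CPM in Bin1KO and 131024 to 171100 CPM in WT, with 2 of 11 lower. Slow fiber markers summed to 327 to 494 CPM against 404 to 659 CPM in WT, with 0 of 9 higher and 1 lower. Regenerating fiber markers summed to 33.8 to 99.1 against 27.1 to 28.3 CPM, with 1 of 5 tested higher, and denervation markers to 109.6 to 233 against 107 to 151 CPM, with 2 of 8 higher. Adipocyte markers summed to 27.3 to 91.4 CPM in Bin1KO and 2.88 to 5.48 CPM in WT, with 3 of 4 tested higher, and macrophage and leukocyte markers to 111 to 216 against 34.1 to 54.3 CPM, with 3 of 5 tested higher. Fibroblast markers summed to 1364 to 2825 against 536 to 689 CPM, with 0 of 6 passing the threshold in edgeR. The part of these markers in the member values was not tested.

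WT mouse 5 weighed on several members of this cohort. For Myom3, Bin1KO mice had 207, 206, 143 and 296 CPM and WT mice 248, 49.9, 39.0 and 57.8 CPM, of which mouse 5 was within the mutant range. The log2 fold change was 1.11 ± 0.58 (edgeR adjusted p = 0.325) with that mouse and 2.11 without it (edgeR adjusted p = 0.0198). Flnc, at 3031, 2418, 1877 and 3729 CPM against 2736, 1305, 1139 and 1241 CPM, went from 0.78 to 1.16 (edgeR adjusted p = 0.0250). Fhl1, at 7103, 6131, 3805 and 6122 CPM against 6010.1, 2801, 2056 and 3237 CPM, went from 0.72 ± 0.29 (edgeR adjusted p = 0.179) to 1.09 (edgeR adjusted p = 0.0327). The same mouse had the highest Csrp3 (1154 CPM) and Ankrd2, a titin-bound ankyrin protein (836 CPM), of the 4 WT mice. Neb, Capn3, Klhl41 and Unc45b did not pass, with log2 fold changes of -0.24 ± 0.16, -0.30 ± 0.12, 0.31 ± 0.16 and -0.30 ± 0.13 (edgeR adjusted p = 0.407, 0.178, 0.298 and 0.221). Of the remaining members, Myoz3 and Xirp1 had groups that did not overlap, at 0.46 and 1.496 (edgeR adjusted p = 0.0842 and 0.0672).

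Whether the mutant effects differed from each other was tested in a fit of all 28 mice. Each mutant is in its own cohort, so mutant and cohort cannot be told apart in such a difference. The mutant effect in the Dnm2 cohort minus that in the Bin1 cohort passed in 0 of 34 members with edgeR, with 1 at an unadjusted p below 0.05 (Myom1, -0.40 ± 0.19) and 0 with DESeq2, against 0.425% of the 14572 genes tested. The difference was 0.46 ± 0.62 for Mybph, 0.60 ± 0.36 for Klhl40, 0.77 ± 0.62 for Myom3 and 0.61 ± 0.34 for Actn3. With SEs of this size the values do not show that the mutants were alike. For Neb, Capn3, Klhl41, Fhl1 and Unc45b the differences were -0.18 ± 0.21, -0.25 ± 0.19, 0.16 ± 0.22, 0.10 ± 0.45 and 0.18 ± 0.19 (edgeR adjusted p = 0.757, 0.602, 0.792, 0.948 and 0.716).

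Tamoxifen in WT mice was compared with placebo in the Dnm2 cohort. Of the 34 members 9 passed (26.5%), near the 27.7% of the 15439 genes. All 9 were lower: Actc1, Actn2, Lmod3, Unc45b, Capn3, Xirp2, Myoz1, Myom1 and Myoz3. Of all genes 2441 were called higher and 1832 lower. Values were below 0 in 32 of 34 members, with a median log2 fold change of -0.37 beside -0.04 over all genes. Mybph and Ankrd1 were the exceptions. The placebo mice are those used above for the Dnm2SL comparison.

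**Figure D3:**
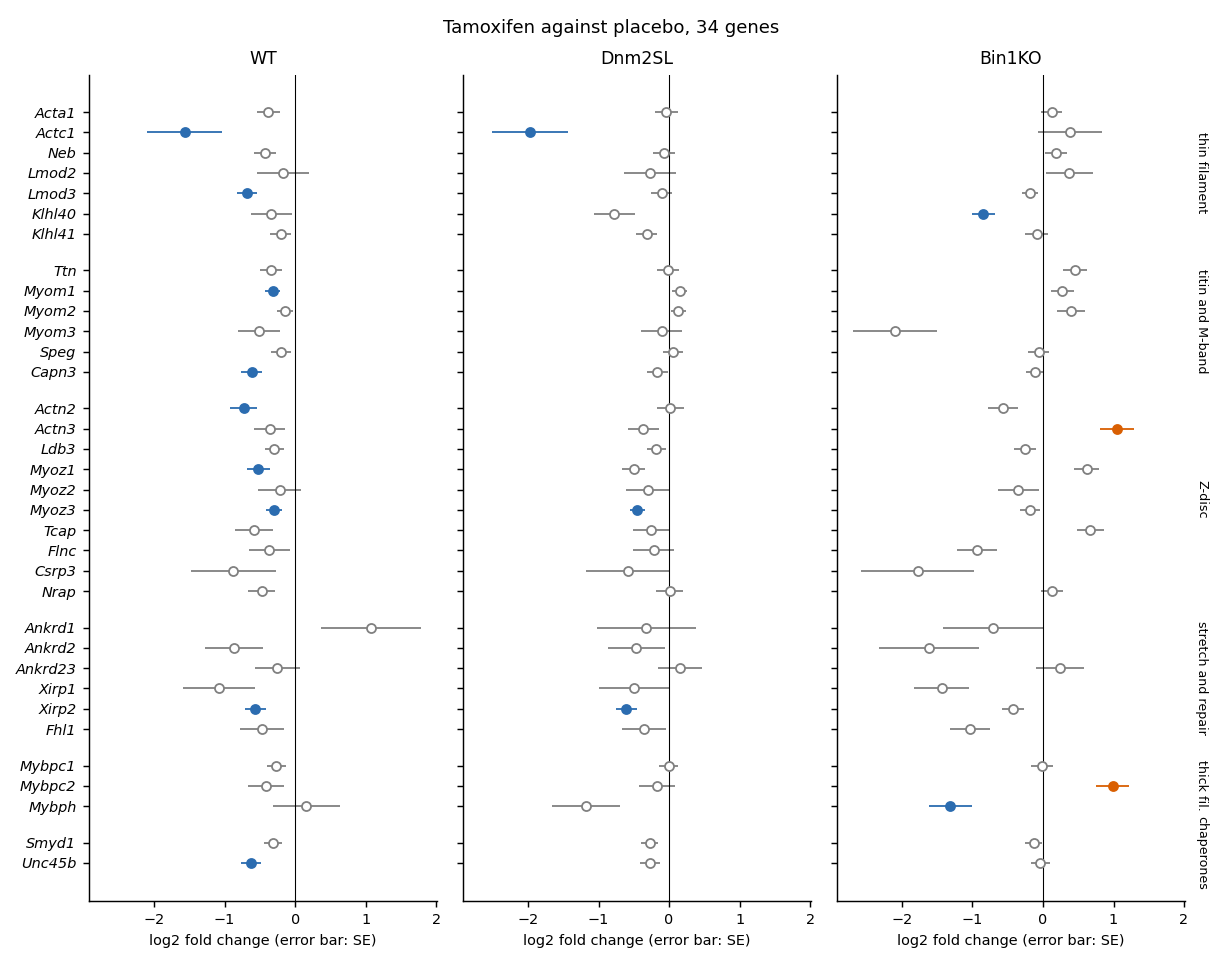
Log2 fold change (x axis, error bar SE) of the 34 genes in tamoxifen against placebo mice, by role, in WT and Dnm2SL mice of the Dnm2 cohort and in Bin1KO mice, 4 mice per group. Filled points passed the threshold, blue lower and orange higher; 9 are filled in WT, 3 in Dnm2SL and 4 in Bin1KO.

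Actc1 was at 217, 318, 413 and 442 CPM on tamoxifen against 1104, 626, 502 and 1892 CPM on placebo, where the lowest placebo mouse lay just above the highest treated mouse. Its log2 fold change was -1.57 ± 0.53 (edgeR adjusted p = 0.0386) and -1.10 without placebo mouse 4 (edgeR adjusted p = 0.126). The call was also lost without placebo mouse 1, without any 1 of the treated mice and without Dnm2SL tamoxifen mouse 2. It was lost as well with library sizes alone, with no filter on low counts and with the replicate number as a block. Lmod3, a leiomodin that nucleates the thin filament, was at 171, 147, 152 and 107 CPM against 245, 248, 203 and 229 CPM, all treated mice being lower, with -0.68 ± 0.15 (edgeR adjusted p = 0.00330). Actn2, the alpha-actinin of all fibers, was at 1266, 1441, 1422 and 1541 CPM against 2331, 2315, 1689 and 3062 CPM, without overlap, with -0.73 ± 0.19 (edgeR adjusted p = 0.0118). Capn3 was at 27.7, 23.8, 35.6 and 29.0 CPM against 42.9, 49.1, 44.3 and 41.9 CPM on placebo, with -0.62 ± 0.15 (edgeR adjusted p = 0.00733). Unc45b was at 181, 167, 222 and 234 CPM against 302, 324, 312 and 303 CPM, with -0.63 ± 0.15 (edgeR adjusted p = 0.00557). Xirp2, a Xin protein of the Z-disc and membrane junctions, was at 1686, 1512, 1645 and 1514 CPM against 2276, 2665, 2329 and 2136 CPM, with -0.57 ± 0.15 (edgeR adjusted p = 0.0129). In each of these last 3 the groups did not overlap. The share of all genes without overlap was not counted in the comparisons with tamoxifen mice of the Dnm2 cohort.

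The other 3 that fell changed by less. Myoz1, a calsarcin of fast fibers, had -0.52, Myom1 -0.32 and Myoz3 -0.30 (edgeR adjusted p = 0.0234, 0.0350 and 0.0470). Myoz3 passed in 4 of 16 fits without a mouse. Neb, at 4689, 3603, 5259.8 and 4635 CPM on tamoxifen, had -0.42 ± 0.15 (edgeR adjusted p = 0.0508) with no overlap. Klhl41 was at 603, 542, 575 and 629 CPM, also with no overlap, with -0.21 ± 0.15 (edgeR adjusted p = 0.317), and Fhl1 at 1818, 1605, 2022 and 2519 CPM with -0.47 ± 0.32 (edgeR adjusted p = 0.283). The 3 members most raised in Dnm2SL mice on placebo did not pass here. Klhl40 was at 55.7, 67.0, 74.4 and 103 CPM, Myom3 at 27.97, 25.1, 27.9 and 37.7 CPM and Mybph at 86.8, 71.3, 176 and 272 CPM. Ankrd1, at 61.7, 103, 46.4 and 84.6 CPM, had 1.08 ± 0.71 with all mice and 2.65 without placebo mouse 4 (edgeR adjusted p = 0.00404).

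The number of falls depended on scaling. With library sizes alone the median of all genes in this comparison moved to 0.24 and that of the members to -0.10, and 3 members passed, all lower: Lmod3 (-0.40), Capn3 (-0.34) and Unc45b (-0.35). The members took 6.59 to 8.12% of raw reads in WT placebo mice and 6.53 to 7.76% in WT tamoxifen mice, and after TMM scaling their sum was 81230 to 93679 and 61098 to 76345 CPM. Bone markers summed to 158 to 479 CPM on placebo and 4470 to 9758 CPM on tamoxifen, with 8 of 10 tested of 12 listed higher, and Ibsp, the bone sialoprotein gene, reached 652 CPM. Of that list, Bglap, Mepe and Sost were at no more than 3.31, 0.480 and 0.158 CPM in any of the 28 mice. They were at 0 in 12, 21 and 17 of these mice. The highest values of Bglap2, Phex, Smpd3 and Dmp1 were 5.14, 1.82, 6.30 and 10.2 CPM. Those of Sp7, Alpl, Mmp13 and Col1a1 were 30.0, 230, 1160 and 7671 CPM. Fibroblast markers summed to 818 to 1061 and 5569 to 10140 CPM with 4 of 6 higher, and tendon markers to 47.9 to 252 and 733 to 1700 CPM with 6 of 6 higher. Fast fiber markers summed to 137245 to 175120 CPM on placebo and 115023 to 127564 CPM on tamoxifen, with 1 of 11 lower. The part of these tissues in the fall of the members was not tested.

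**Figure D4:**
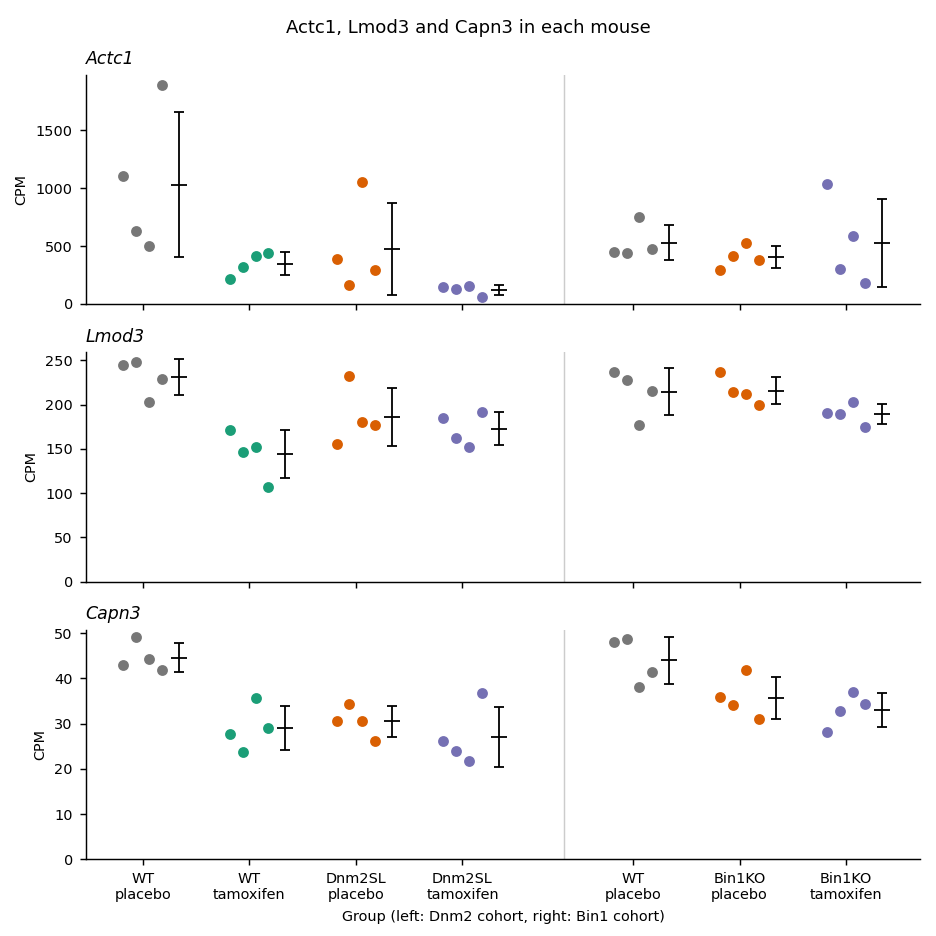
CPM (y axis, from 0) of Actc1, Lmod3 and Capn3 in each of the 28 mice, one point per mouse, with the mean and SD of each group of 4 beside it; the Dnm2 cohort is left of the line. WT tamoxifen mice (green) lie below WT placebo mice (gray) for all 3, and Actc1 is lowest in Dnm2SL mice on tamoxifen, at 58.3 to 156 CPM.

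In Dnm2SL mice 3 members (8.82%) passed with tamoxifen, all lower (Actc1, Xirp2 and Myoz3), near the 8.27% of all genes. Of all genes 806 were called higher and 471 lower. Of the members, 28 of 34 values were below 0, with a median of -0.26 beside -0.03 over all genes. Actc1 was at 146, 124, 156 and 58.3 CPM on tamoxifen against 389.7, 160.0, 1057 and 292 CPM on placebo. All treated mice lay below all placebo mice, with a log2 fold change of -1.97 ± 0.54 (edgeR adjusted p = 0.0368), and -1.21 without placebo mouse 3 (edgeR adjusted p = 0.111). Its call was also lost without treated mouse 4 (-1.74, edgeR adjusted p = 0.0569), with library sizes alone (-1.85, edgeR adjusted p = 0.0570) and with no filter on low counts. Xirp2 was at 1693, 1628, 1500.4 and 2459 CPM against 2789, 3273, 2167 and 2855 CPM, with treated mouse 4 inside the placebo range and -0.61 ± 0.15 (edgeR adjusted p = 0.0258). Myoz3 was at 268, 215, 237 and 301 CPM against 344, 343, 336 and 374 CPM, without overlap, with -0.45 ± 0.11 (edgeR adjusted p = 0.0192). Of the 34 members, 0 passed without treated mouse 2 or mouse 3 (edgeR, with 4 at an unadjusted p below 0.05 in either case), and 8 without treated mouse 4. Bone markers summed to 542 to 7799 CPM on tamoxifen and 428 to 585 CPM on placebo, with 8 of 10 tested higher, cartilage markers to 5.86 to 40.4 against 6.74 to 10.7 CPM, with 3 of 6 tested higher, and fibroblast markers to 1576 to 7543 against 1232 to 1790.3 CPM, with 2 of 6 higher. Their part in the member values was not tested.

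Mybph, Klhl40 and Myom3, the 3 members most raised in Dnm2SL mice on placebo, did not pass here. Mybph was at 414, 177, 304 and 328 CPM with -1.18 ± 0.48 (edgeR adjusted p = 0.143), Klhl40 at 180.0, 114, 144 and 289 CPM with -0.78 ± 0.30 (edgeR adjusted p = 0.117), and Myom3 at 161, 98.8, 138 and 182 CPM with -0.11 ± 0.29 (edgeR adjusted p = 0.863). Without treated mouse 4, which had the highest Klhl40, Myom3, Flnc and Xirp1 of its group, Klhl40 was -1.09 (edgeR adjusted p = 0.0152), Flnc -0.71 (edgeR adjusted p = 0.0180) and Xirp1 -1.43 (edgeR adjusted p = 0.0202), while Myom3 was -0.23 (edgeR adjusted p = 0.655). Myoz1, Klhl41 and Smyd1 also passed without that mouse, at -0.61, -0.46 and -0.40, and Klhl40 passed without placebo mouse 3 (-0.97, edgeR adjusted p = 0.0469). In treated mouse 4 bone markers summed to 542 CPM, against 7799 CPM in the highest of the 4 treated mice. Capn3, Neb, Fhl1, Klhl41 and Unc45b had -0.17 ± 0.15, -0.072 ± 0.15, -0.35 ± 0.32, -0.32 ± 0.15 and -0.27 ± 0.15 (edgeR adjusted p = 0.527, 0.815, 0.521, 0.193 and 0.252).

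The interaction of genotype and tamoxifen in the Dnm2 cohort asked whether the response of Dnm2SL mice differed from that of WT mice. With edgeR 0 of 34 members passed, 3 had an unadjusted p below 0.05 (Myom1, Lmod3 and Actn2), and DESeq2 called Myom1 alone, against 0.259% of all genes called by edgeR. The interaction was 0.47 ± 0.15 for Myom1, 0.57 ± 0.21 for Lmod3, 0.75 ± 0.27 for Actn2 and -1.34 ± 0.68 for Mybph (edgeR adjusted p = 0.205, 0.261, 0.272 and 0.410). For Capn3, Neb, Fhl1, Klhl41 and Unc45b it was 0.45 ± 0.21, 0.35 ± 0.22, 0.12 ± 0.45, -0.11 ± 0.21 and 0.35 ± 0.21 (edgeR adjusted p = 0.371, 0.510, 0.944, 0.880 and 0.485).

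In Bin1KO mice 4 members (11.8%) passed with tamoxifen, against 3.13% of all genes. Mybph and Klhl40 were lower and Actn3 and Mybpc2 were higher. The Bin1KO placebo mice are also part of the comparison with WT, and the values of both comparisons stand side by side without a test. Mybph was at 343, 199, 277 and 247 CPM on tamoxifen, below every placebo mouse, with -1.31 ± 0.31 (edgeR adjusted p = 0.0403). Klhl40 was at 222, 159, 135 and 167 CPM, also without overlap, with -0.85 ± 0.17 (edgeR adjusted p = 0.0161), and -0.75 without treated mouse 3 (edgeR adjusted p = 0.0504). Actn3 was at 6692, 4342, 9974 and 8252 CPM, with 1 treated mouse inside the placebo range and 1.05 ± 0.24 (edgeR adjusted p = 0.0305). Mybpc2 was at 4430.5, 2828, 6115 and 4746 CPM, with 1 mouse inside that range and 0.99 ± 0.24 (edgeR adjusted p = 0.0365). Mybph passed in 5, Actn3 in 7 and Mybpc2 in 3 of the 12 fits without a mouse. Without treated mouse 3 they stood at -1.33, 0.87 and 0.81 (edgeR adjusted p = 0.109, 0.0900 and 0.109), and 0 members passed (edgeR, with 11 at an unadjusted p below 0.05).

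Other members had treated and placebo Bin1KO mice that did not overlap, without passing. Fhl1 was at 3011, 3068, 2166 and 3057 CPM on tamoxifen, below all placebo mice, with -1.04 ± 0.29 (edgeR adjusted p = 0.0670). Myom3 was at 51.2, 56.7, 28.2 and 62.2 CPM, 4.28-fold lower without overlap, with -2.10 ± 0.60 (edgeR adjusted p = 0.0905). Xirp1, Flnc, Csrp3 and Ankrd2 were likewise without overlap, with -1.44, -0.94, -1.78 and -1.61 (edgeR adjusted p = 0.0734, 0.0880, 0.246 and 0.235). Myoz1 was at 2155, 1607, 2359.6 and 3023 CPM against 1588, 1576, 1566 and 1227 CPM, above all placebo mice, with 0.62 ± 0.17 (edgeR adjusted p = 0.0623). In all, the groups of 10 members did not overlap, as was the case in 9.8% of all genes. Capn3, Neb, Klhl41 and Unc45b had -0.11 ± 0.12, 0.19 ± 0.16, -0.092 ± 0.16 and -0.041 ± 0.13 (edgeR adjusted p = 0.644, 0.524, 0.785 and 0.894). Fast fiber markers summed to 117997 to 203411 CPM on tamoxifen with 1 of 11 higher, and Schwann cell markers to 22.5 to 34.5 CPM against 45.5 to 98.8 CPM on placebo, with 3 of 5 lower. Their part in the member values was not tested.

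**Figure D5:**
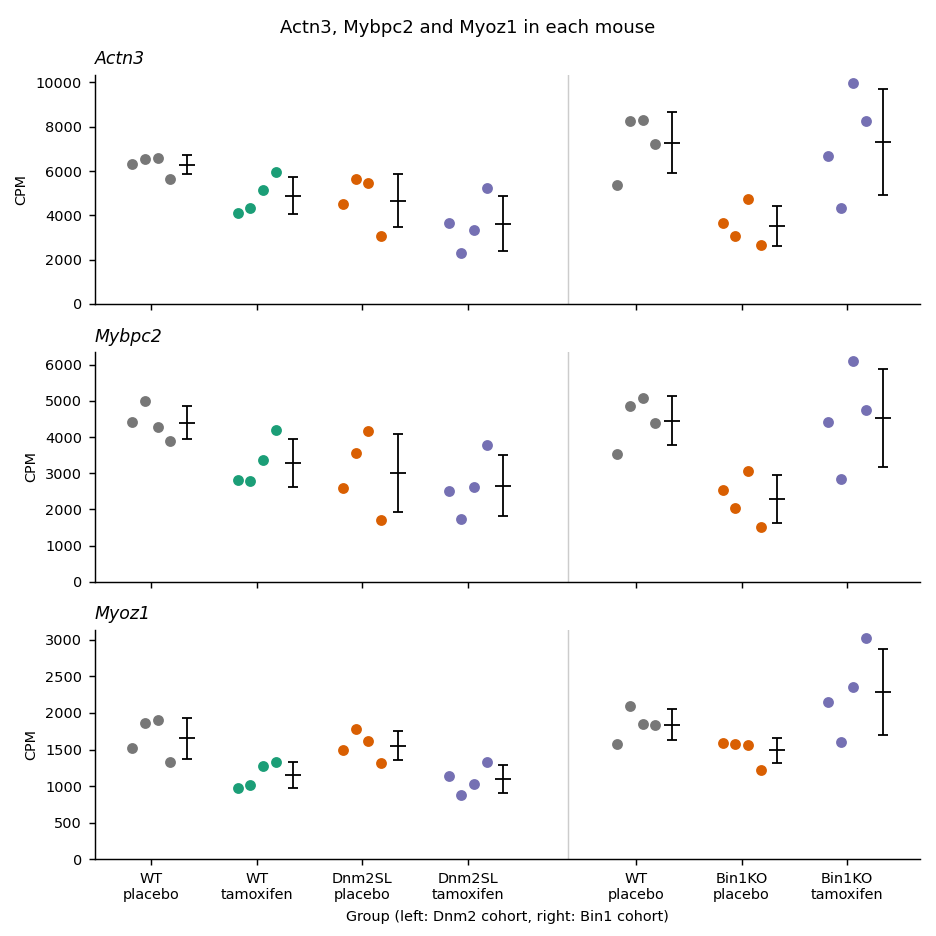
CPM (y axis, from 0) of Actn3, Mybpc2 and Myoz1 in each of the 28 mice, one point per mouse, with the mean and SD of each group of 4 beside it; the Dnm2 cohort is left of the line. In the Bin1 cohort placebo mutants (orange) are low for Actn3 and Mybpc2, and treated mutants (violet) spread from 2828 to 6115 CPM of Mybpc2. In the Dnm2 cohort treated Dnm2SL mice lie at 1732 to 3781 CPM of Mybpc2. CPM were scaled within each cohort, so levels are not to be compared between the cohorts.

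The response to tamoxifen differed between the mutants, each in its own cohort, in 2 members (5.88%), against 2.68% of the 14572 genes tested. Mutant and cohort cannot be told apart in this difference. The effect of library protocol cancels only as far as it acts equally on the groups of a cohort. The response of Dnm2SL minus that of Bin1KO was -1.39 ± 0.34 for Actn3 (edgeR adjusted p = 0.0419) and -1.09 ± 0.24 for Myoz1 (edgeR adjusted p = 0.0313). Actn3 was at 3636, 2287, 3313 and 5254 CPM in Dnm2SL on tamoxifen and 4501, 5649, 5441 and 3054 CPM on placebo, with -0.36 ± 0.22 in that mutant beside 1.05 ± 0.24 in Bin1KO. Myoz1 was at 1142, 875, 1030.3 and 1334 CPM and 1497, 1777, 1621 and 1314 CPM, with -0.50 ± 0.16 beside 0.62 ± 0.17. With library sizes alone, where the median of all genes moved to 0.21, the differences were -1.16 and -0.86 and still passed. Over the 28 fits without a mouse Actn3 passed in 17 and Myoz1 in 21. Both calls were lost without Dnm2SL placebo mouse 2, treated Dnm2SL mouse 1, 2 or 3, Bin1KO placebo mouse 4 or treated Bin1KO mouse 3 or 4. Without Dnm2SL placebo mouse 3 the call of Actn3 was lost. Without treated Dnm2SL mouse 4, Mybpc2, Tcap and Ttn also passed, all lower in Dnm2SL. Mybpc2, Myom3 and Actc1 differed by -1.14, 2.03 and -2.33 without passing (edgeR adjusted p = 0.0683, 0.0629 and 0.0689). For Capn3, Neb, Fhl1, Klhl41 and Unc45b the differences were -0.025 ± 0.20, -0.23 ± 0.21, 0.72 ± 0.45, -0.20 ± 0.22 and -0.20 ± 0.19 (edgeR adjusted p = 0.948, 0.517, 0.321, 0.603 and 0.531).

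Treated mutants were then set against the same WT mice on placebo of their own cohort. In Dnm2SL on tamoxifen 12 members (35.3%) passed, 2 higher and 10 lower, against 28.9% of all genes. Actc1 was 8.52-fold lower, with a log2 fold change of -3.09 ± 0.56 (edgeR adjusted p = 0.00132), and the groups did not overlap. Myom3 remained higher at 1.77 ± 0.30 (edgeR adjusted p = 0.000932), as did Klhl40 at 0.93 ± 0.30 (edgeR adjusted p = 0.0281), the latter at 0.62 without treated mouse 4 (edgeR adjusted p = 0.0867). Actn3, Mybpc2 and Capn3 were lower, with -0.79 ± 0.22, -0.73 ± 0.26 and -0.71 ± 0.15 (edgeR adjusted p = 0.0157, 0.0434 and 0.00318), followed by Myoz1, Myom1, Neb (-0.49 ± 0.15, edgeR adjusted p = 0.0258), Ttn, Lmod3 and Smyd1, between -0.60 and -0.35. Fhl1, Klhl41 and Unc45b had 0.47 ± 0.32, 0.15 ± 0.15 and -0.39 ± 0.15 (edgeR adjusted p = 0.283, 0.456 and 0.0563). With library sizes alone, where the median of all genes moved to 0.35, 8 members were higher and 3 lower. Actc1, Actn3 and Capn3 were the 3 lower under that scaling. Without treated mouse 4, Mybpc1, Nrap, Unc45b and Xirp2 also passed, at -0.36, -0.58, -0.51 and -0.55. Without WT mouse 4, Ankrd1 (2.67) and Mybph (1.51) passed, and Lmod3 and Smyd1 did not (edgeR adjusted p = 0.0594 and 0.0664).

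Markers of other tissues and fiber states also differed in this comparison. Fast fiber markers summed to 85906 to 144310 CPM in treated Dnm2SL mice and 137245 to 175120 CPM in WT mice on placebo, with 7 of 11 lower. Regenerating fiber markers stood at 54.2 to 103.7 against 18.2 to 32.3 CPM, with 5 of 6 higher, and denervation markers at 245 to 303 against 86.7 to 110.4 CPM, with 5 of 8 higher. Bone markers were at 542 to 7799 against 158 to 479 CPM (8 of 10 tested higher), fibroblast markers at 1576 to 7543 against 818 to 1061 CPM (4 of 6 higher) and tendon markers at 118 to 875 against 47.9 to 252 CPM (5 of 6 higher). Their part in the member values was not tested.

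In Bin1KO on tamoxifen 0 of 34 members passed with edgeR against WT on placebo, beside 0.849% of all genes, with 4 at an unadjusted p below 0.05 and 0 with DESeq2. The 4 were Capn3 (-0.41 ± 0.12, edgeR adjusted p = 0.130), Tcap (0.56), Myom2 (0.54) and Unc45b (-0.34 ± 0.13, edgeR adjusted p = 0.255). Mybph, Klhl40, Actn3 and Mybpc2 had 0.57 ± 0.30, 0.26 ± 0.17, 0.0054 ± 0.24 and 0.023 ± 0.24. Neb, Fhl1 and Klhl41 had -0.058 ± 0.16, -0.32 ± 0.28 and 0.22 ± 0.16 (edgeR adjusted p = 0.899, 0.643 and 0.561). A p above the threshold does not show that treated Bin1KO mice equalled WT mice.

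A wider list of 40 sarcomere and Z-disc genes that are no members, of which 39 were tested, was read from the same fits. It too was chosen with earlier results of these data known, so its shares describe the list and are no independent support. In Dnm2SL on placebo 18 passed, 46.2% of the list against 21.9% of all genes, with 10 higher and 8 lower, led by Hspb8, a chaperone of filamin (1.43, adjusted p = 6.58e-05), Synpo2, a Z-disc synaptopodin (-0.73, adjusted p = 0.000824), and Smpx (0.98, adjusted p = 0.00114). In WT on tamoxifen 10 passed, 25.6% against 27.7% of all genes, with 2 higher and 8 lower, led by Fhl2, a LIM protein (2.23, adjusted p = 0.000291), Actn1, the non-muscle alpha-actinin (1.73, adjusted p = 0.00233), and Synpo2 (-0.56, adjusted p = 0.00359). In Dnm2SL on tamoxifen against placebo 6 passed, 15.4% against 8.27%, with 2 higher and 4 lower, led by Actn1 (1.58, adjusted p = 0.0142), Fhl2 (1.29, adjusted p = 0.0160) and Cavin4, a caveolar protein of muscle (-0.71, adjusted p = 0.0185). Against WT on placebo 17 passed, 43.6% against 28.9%, with 5 higher and 12 lower, led by Fhl2 (2.86, adjusted p = 8.52e-05), Synpo2 (-0.73, adjusted p = 0.000709) and Myot, the Z-disc protein myotilin (-0.63, adjusted p = 0.00122).

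In the Bin1 cohort 1 gene of the wider list, 2.56% of those tested, passed in each comparison. In Bin1KO on placebo it was Cavin4 (0.72, adjusted p = 0.0332), beside 2.61% of all genes, followed by Pdlim7 (-0.67, adjusted p = 0.0501) and Fhl3 (0.63, adjusted p = 0.0529) without passing. With tamoxifen in Bin1KO it was Pdlim7 (0.75, adjusted p = 0.0282), beside 3.13% of all genes, followed by Hspb1 (-1.35, adjusted p = 0.0601) and Cavin4 (-0.56, adjusted p = 0.0699). Against WT, in treated Bin1KO mice, it was Trim63, a ubiquitin ligase of the M-band (1.33, adjusted p = 0.00519), beside 0.849% of all genes, followed by Fhl3 (0.50, adjusted p = 0.174) and Pdlim1 (-0.59, adjusted p = 0.192). The response to tamoxifen differed between mutants in 4 (10.3% against 2.68%), with Fhl2 (2.29, adjusted p = 0.0419), Tmod1 (-0.68, adjusted p = 0.0444) and Actn1 (1.81, adjusted p = 0.0478) first. With edgeR 0 passed for the interaction (3 at an unadjusted p below 0.05 and 0 with DESeq2), led by Synpo2 (0.56, adjusted p = 0.191), Unc45a (0.39, adjusted p = 0.322) and Fhl2 (-0.93, adjusted p = 0.339), or for the difference between mutant effects (6 at an unadjusted p below 0.05 and 0 with DESeq2), led by Obsl1 (0.87, adjusted p = 0.127), Hspb8 (0.75, adjusted p = 0.172) and Pdlim5 (-0.66, adjusted p = 0.181).

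The genes whose levels most resembled those of the 3 leading members were found by Pearson's r of log2 CPM over the 28 mice among 14571 other genes, after subtracting the mean of the WT placebo mice of the same cohort. Mice of a group share genotype and treatment, so that the r values describe the groups as much as the mice. Mybph was most like Fntb (r = 0.914), Klhl40 (r = 0.901) and Stom (r = 0.901). Klhl40 was most like the small heat shock gene Hspb1 (r = 0.956), Arl6ip5 (r = 0.936) and 1810058I24Rik (r = 0.933). Myom3 was most like Ttc9 (r = 0.921), Fam234a (r = 0.909) and Itga9 (r = 0.894). Among the 3 members themselves r was 0.774 between Mybph and Myom3 and 0.847 between Myom3 and Klhl40.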

How the data were processed

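The authors deposited a table of raw read counts per gene for each cohort, and the labels' groups were used. The submitters' processing notes name build mm39, bcl2fastq 2.20.0.422, cutadapt 1.10, Bowtie 1.2.2, STAR 2.5.3 and HTSeq 0.6.1p1. Of the Bin1 cohort, 4 lines that name no gene (22.0 to 30.8% of counts) were left out. Libraries were stranded and poly(A)-selected from 300 ng (Dnm2) or 350 ng (Bin1) of RNA, fragmented for 2 or 8 min. RNA input and fragmentation therefore differ with the cohort.

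Counts were fitted across all genes with edgeR 4.0.16 (R 4.3.3) by the robust quasi-likelihood test with TMM scaling, filterByExpr by group, a prior count of 2 and Benjamini-Hochberg adjustment. The threshold was an adjusted p of 0.05. Each cohort was fitted by itself, and the differences between cohorts came from one fit of all 28 mice. The SE is the absolute log2 fold change divided by the square root of F. Alternatives were DESeq2 1.42.0, median-ratio and library-size scaling, other filters, fits of only the groups compared, a replicate block, and leaving out each mouse. Full statistics are given for called members with the 6 largest absolute log2 fold changes in each comparison and for Capn3, Neb, Fhl1, Klhl41 and Unc45b. The members, lists and this rule were chosen with earlier results of these data known. The labels number the mice, and p-values measure the spread between them. Same-numbered mice did not deviate together in every pair, so no pairing was used.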

Additional observations from a re-analysis of the deposited data

Results flagged for a closer look

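Single mice were checked in the 17 members that the rule above selects for full statistics in the mutant or tamoxifen comparisons. In groups of 4 mice, 10 of 119 combinations of member and group had a mouse whose gap to the nearest other mouse exceeded Dixon's 95% critical value. Chance flags about 1 in 20 of independent combinations, and genes measured in the same mouse are not independent. Myom3 stood at 67.7 CPM in Dnm2SL placebo mouse 3, against 184.7 to 187.7 CPM in the other 3, and Mybph in the same mouse at 361 CPM, against 775 to 827 CPM. Myom3 stood at 248 CPM in WT placebo mouse 5 of the Bin1 cohort, against 39.0 to 57.8 CPM, and Flnc in that mouse at 2736 CPM, against 1139 to 1305 CPM. Dnm2SL tamoxifen mouse 4 had 2986 CPM of Actn2, against 1826 to 2010 CPM, and 3269 CPM of Flnc, against 1124 to 1398 CPM. Bin1KO tamoxifen mouse 3 had 1460 CPM of Actn2, against 2305 to 2346 CPM, and 2166 CPM of Fhl1, against 3011 to 3068 CPM. Actc1 was at 755 CPM in WT placebo mouse 7 of the Bin1 cohort, against 438 to 477 CPM, and Neb at 5032 CPM in Dnm2SL placebo mouse 1, against 4346 to 4439 CPM. The response to tamoxifen differed between the mutants by a log2 value of -1.39 for Actn3 (edgeR adjusted p = 0.0419) and -1.09 for Myoz1 (edgeR adjusted p = 0.0313), both lower in Dnm2SL than in Bin1KO mice. Mutant and cohort cannot be told apart in these differences.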

How the results depend on the processing

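Of 33 named calls, median-ratio scaling, DESeq2 and the study's filter each kept 33, library sizes alone and no filter 26 each, and fits of only the groups compared 23; leaving out 1 mouse kept 404 of 520. Of 34 members, library sizes alone called 3 for tamoxifen in WT. Fits of only the groups compared called 0 for tamoxifen in Dnm2SL (5 at an unadjusted p below 0.05), 2 for tamoxifen in Bin1KO (Fhl1 and Myom3) and 0 for the difference between the mutants' responses (6 at an unadjusted p below 0.05). No filter called 7 for treated Dnm2SL against WT and 1 for the difference between responses. DESeq2 called 11 for Dnm2SL against WT (7 higher and 4 lower). It called 1 for the interaction, 8 for Bin1KO against WT, 10 for tamoxifen in Bin1KO and 5 for the difference between responses. The cause of these changes was not tested.

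Leaving out 1 mouse gave 5 (without WT placebo mouse 2) to 12 (without Dnm2SL placebo mouse 3) calls for Dnm2SL against WT and 5 (without WT placebo mouse 2) to 14 (without treated Dnm2SL mouse 4) for tamoxifen in WT. It gave 0 (without treated mouse 2 or 3) to 8 (without treated mouse 4) for tamoxifen in Dnm2SL, and 6 (without WT placebo mouse 2) to 15 (without treated mouse 4) for treated Dnm2SL against WT. In the Bin1 cohort it gave 1 (without WT mouse 6 or 8) to 6 (without WT mouse 5 or Bin1KO mouse 3) for Bin1KO against WT, and 0 (without treated mouse 3, with 11 at an unadjusted p below 0.05) to 7 (without WT mouse 5) for tamoxifen. The difference between responses ranged from 0 (without Dnm2SL placebo mouse 2, with 7 at an unadjusted p below 0.05) to 5 (without treated Dnm2SL mouse 4).

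Values that changed sign were uncalled in either fit. With library sizes alone these were Unc45b in Dnm2SL against WT (0.15), Klhl41 with tamoxifen in WT (0.075), Fhl1 in the interaction (-0.11), and Klhl41 (0.022), Capn3 (0.18) and Unc45b (0.011) in the difference between responses. Leaving out 1 mouse moved Neb with tamoxifen in Dnm2SL from -0.26 to 0.023, Fhl1 in the interaction from -0.12 to 0.31, Klhl41 and Unc45b with tamoxifen in Bin1KO from -0.20 to 0.016 and from -0.14 to 0.026, Neb and Fhl1 in treated Bin1KO against WT from -0.22 to 0.027 and from -0.51 to 0.058, Fhl1 in the difference between mutant effects from -0.29 to 0.33, and Capn3 in the difference between responses from -0.20 to 0.070.

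Same-numbered mice correlated from -0.23 to 0.16 in their deviations, and the labels give the numbers no shared origin. With the replicate number as a block, 10 members were called for Dnm2SL against WT, 7 for tamoxifen in WT, 2 for tamoxifen in Dnm2SL, 11 for treated Dnm2SL against WT, 0 for the interaction (4 at an unadjusted p below 0.05) and 6 for tamoxifen in Bin1KO (Myom3, Csrp3, Ankrd2, Xirp1, Fhl1 and Klhl40, all lower, with Mybph, Actn3 and Mybpc2 not called). The block kept 21 of the 27 named calls it could be run on.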
